A study of Homo sapiens with 6 samples.

Results

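Cancer-testis antigen genes were examined in IDTC colonies and parent cells of WM164, a human melanoma line whose BRAF kinase carries an activating mutation. The members were every probe set whose platform symbol field held 1 of 45 listed gene symbols, alone or among paralogues. This gave 55 of 33297 probe sets and covered 43 of the 45 genes (of 20172 gene symbols on the array), while MAGEA5 and BAGE were not analysed here. The 3 IDTC colony samples had been kept for 60 days in 500 nM PLX4032, an inhibitor of mutant BRAF also called vemurafenib, and the labels describe them as resistant. The 3 parent samples are labelled as control and untreated, and the series title gives them DMSO, the solvent of the inhibitor. All 6 samples share the same line and BRAF mutation, and the labels do not say whether each colony grew from 1 cell. Each was hybridised to a separate Affymetrix whole-transcript array of 1 colour, so precision is set by how few arrays there are.

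Cancer-testis antigens are proteins made by germ cells of the testis and, outside it, mainly by tumours. Most of their genes sit on the X chromosome in families of near-identical copies, and DNA methylation of their promoters keeps them silent in other adult tissues. Melanomas often express MAGE, GAGE, SSX and PRAME genes, and peptides from several of them are displayed to T cells, which is how the first were found. Because the copies are so alike, probe sets of this array often list several genes, and such a probe set measures their joint signal.

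The values are the authors' log2 expression values. A probe set was called dim in a group when the group's mean lay under 6.25, the lowest of the 6 array medians, and whether such a value was above background was not tested. Of the 55 probe sets, 29 were dim in both groups. By the higher of the group means, the brightest dim ones were 2 probe sets of the SSX copies, with means of 5.50 and 5.56 in colonies and of 5.98 and 6.02 in parent cells. The nearest ones that were not dim in both groups were PAGE5 (6.22 in colonies and 6.28 in parent cells) and MAGEA10 (5.56 in colonies and 6.33 in parent cells). Some probe sets held the same 6 values as another, namely 5 of XAGE1 and 2 each of XAGE2, SPANXB1, MAGEA9 and CTAG1, so the 55 carried 47 distinct measurements, and the counts below are of these. Over all probe sets, Pearson correlations were 0.9782 to 0.9803 between colony and parent arrays and 0.995 to 0.9971 within a group. Of 12 probe sets of melanocyte lineage markers, 11 were above that threshold in both groups, those of PMEL, SOX10, MITF and MLANA among them, and TYRP1 was dim in both. Within this list RAB38 (0.98) and GPR143 (0.90) had the largest rises and MLANA (-1.45) and S100A1 (-0.85) the deepest falls.

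The cancer-testis genes did not move as a block. GAGE genes rose strongly and most CSAG probe sets rose slightly. SAGE1, SSX1, MAGEB2, MAGEA4 and MAGEA1 fell strongly, and most other MAGE-A probe sets fell less. PRAME and the NY-ESO-1 genes did not pass the test. In all, 6 of the 47 distinct probe sets were higher and 18 lower in colonies (limma over all probe sets, Benjamini-Hochberg adjusted p under 0.05), or 51.1% called, against 29.7% of all 33297 probe sets. A difference of at least 2-fold was called for 8 of the 47 (2 higher and 6 lower), or 17%, against 3.77% of all probe sets. Of the 23 that were dim in both groups 6 were called, where 8.43% of all dim probe sets with a gene symbol were, and of the other 24 there were 18 called, where 56.2% were. The median log2 difference, colony minus parent, was -0.06 over the 47 and 0.01 over all probe sets. Members were chosen with earlier results of these data known, and paralogues share probes, so the 47 are not independent. Fewer cells expressing a gene and less RNA per cell cannot be told apart in these bulk samples.

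**Figure D1:**
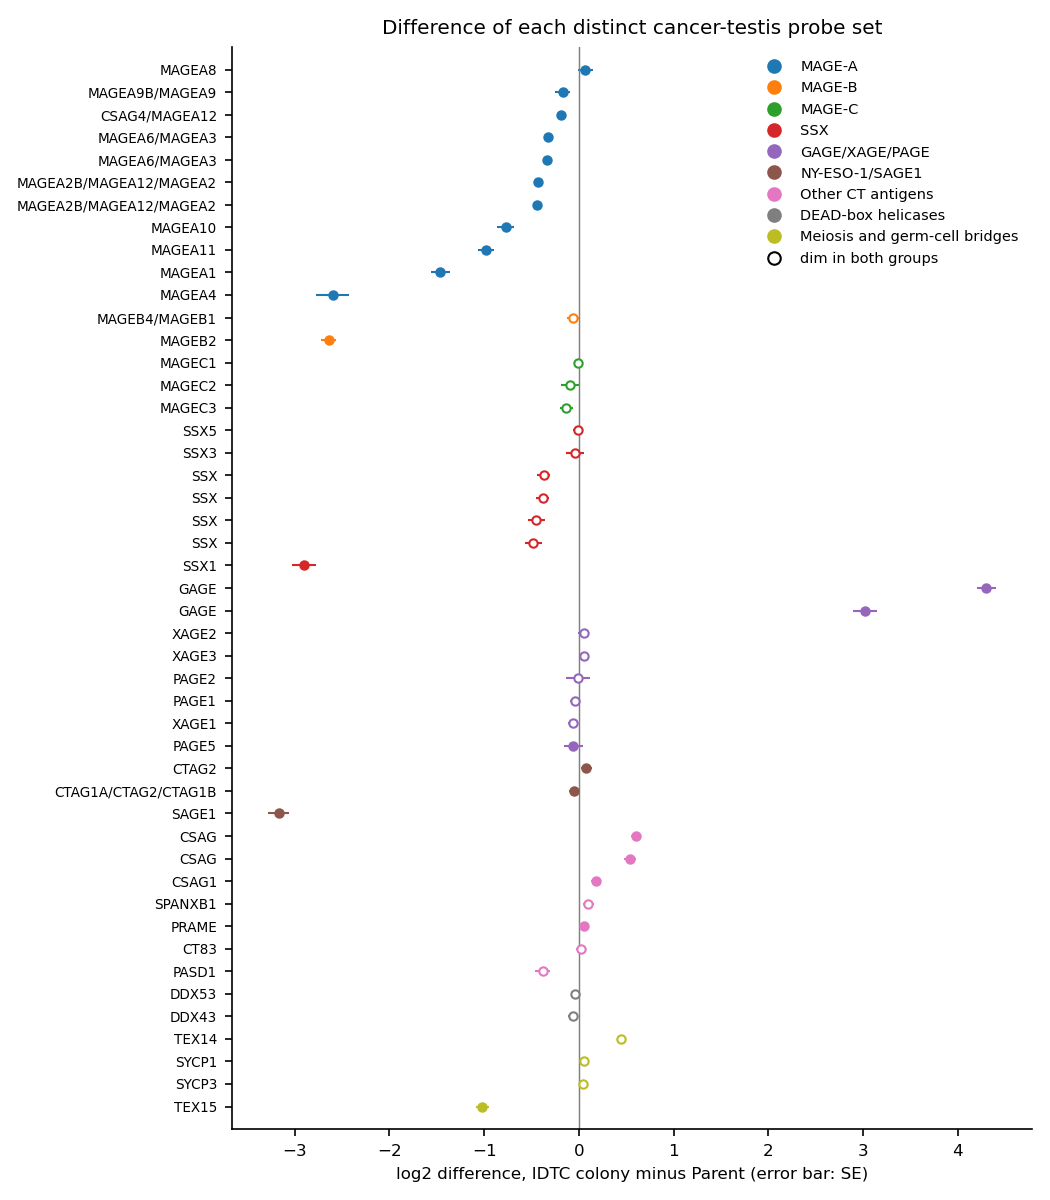
Log2 difference, IDTC colony minus parent, of the 47 distinct cancer-testis probe sets, with its SE from limma as the bar, coloured by family and with open circles for probe sets dim in both groups. The 2 GAGE probe sets lie alone on the right at 4.30 and 3.02, and SAGE1, SSX1, MAGEB2 and MAGEA4 lie on the left between -3.17 and -2.60.

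**Figure D2:**
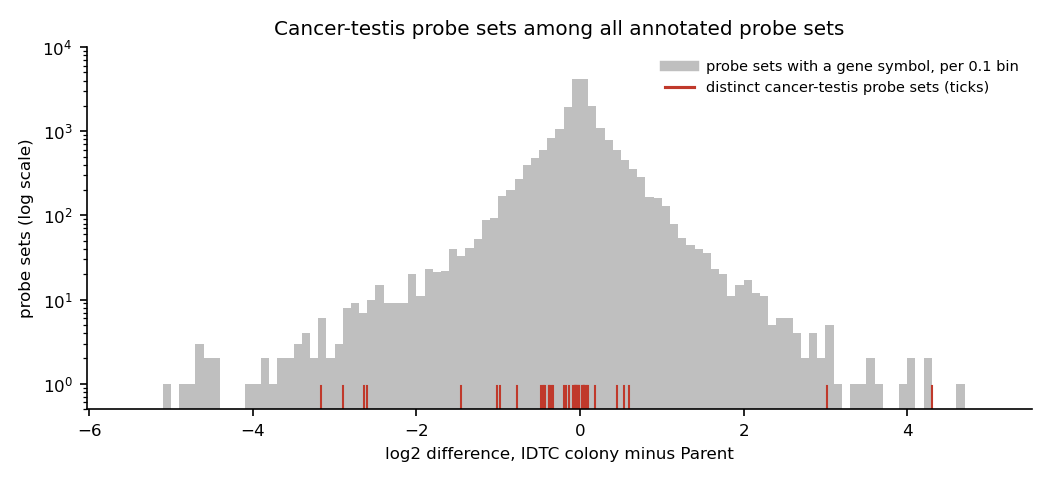
Histogram of the log2 difference, IDTC colony minus parent, of all probe sets with a gene symbol in bins of 0.1 (log count axis), with a red tick for each of the 47 distinct cancer-testis probe sets. Most ticks crowd around 0, while GAGE at 4.30 and SAGE1 at -3.17 lie in the thin tails.

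The upstream sequences of members that moved most, and of PRAME, which did not pass the test, are shown so that their CG dinucleotides, the targets of DNA methylation, can be compared. They are the 250 bases before the first listed start of each gene in RefSeq (GRCh38.p14), written 5′ to 3′ along the gene with CG in capitals. GAGE2A (chrX:49589246-49589495, plus strand) stands for the genes that rose, and SAGE1 (chrX:135893466-135893715, plus), SSX1 (chrX:48255142-48255391, plus), MAGEB2 (chrX:30215313-30215562, plus) and MAGEA4 (chrX:151912224-151912473, plus) for those that fell. PRAME (chr22:22559266-22559515, minus) is the bright member with nearly equal levels.
GAGE2A: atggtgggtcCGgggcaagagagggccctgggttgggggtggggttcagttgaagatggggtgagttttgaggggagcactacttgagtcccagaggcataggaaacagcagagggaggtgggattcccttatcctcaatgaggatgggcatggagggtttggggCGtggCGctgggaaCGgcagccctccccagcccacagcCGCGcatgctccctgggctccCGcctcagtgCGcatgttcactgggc
SAGE1: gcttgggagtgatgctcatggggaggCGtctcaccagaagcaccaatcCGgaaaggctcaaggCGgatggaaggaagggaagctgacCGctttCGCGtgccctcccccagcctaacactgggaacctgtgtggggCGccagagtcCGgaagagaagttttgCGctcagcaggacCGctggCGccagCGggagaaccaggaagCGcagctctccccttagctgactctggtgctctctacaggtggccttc
SSX1: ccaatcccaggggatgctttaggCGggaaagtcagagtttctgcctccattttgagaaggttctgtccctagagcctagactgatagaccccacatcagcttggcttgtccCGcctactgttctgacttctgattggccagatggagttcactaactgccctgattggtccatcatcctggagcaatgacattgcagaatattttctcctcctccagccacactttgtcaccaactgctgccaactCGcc
MAGEB2: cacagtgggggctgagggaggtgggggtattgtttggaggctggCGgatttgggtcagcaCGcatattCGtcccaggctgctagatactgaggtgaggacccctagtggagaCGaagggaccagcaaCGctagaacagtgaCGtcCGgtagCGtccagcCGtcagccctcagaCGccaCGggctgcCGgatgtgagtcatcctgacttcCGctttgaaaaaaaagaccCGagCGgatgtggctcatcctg
MAGEA4: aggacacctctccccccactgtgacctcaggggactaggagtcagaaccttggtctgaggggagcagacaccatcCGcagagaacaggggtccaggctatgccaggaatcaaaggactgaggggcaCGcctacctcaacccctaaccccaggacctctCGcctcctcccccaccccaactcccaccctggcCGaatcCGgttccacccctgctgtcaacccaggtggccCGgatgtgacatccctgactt
PRAME: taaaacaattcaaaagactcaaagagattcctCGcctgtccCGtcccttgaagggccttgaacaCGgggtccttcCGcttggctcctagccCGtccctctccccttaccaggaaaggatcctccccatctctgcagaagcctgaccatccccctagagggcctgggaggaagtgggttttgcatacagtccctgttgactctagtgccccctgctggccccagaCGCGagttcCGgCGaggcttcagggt
The number of CG dinucleotides was 8 for GAGE2A, 13 for SAGE1, 3 for SSX1, 15 for MAGEB2, 6 for MAGEA4 and 9 for PRAME. The median was 11 over 27305 promoters of this length. GAGE2A, the only one shown that rose, thus lay within the range of those that fell. Genes picked by their change, with only GAGE2A for the rises, cannot show or exclude a link with CG number. Promoters of MAGEA1, MAGEA10 and TEX15, which also fell, were not in the reference used. The 12 GAGE promoters in the table held 7 to 9 and came in 5 distinct sequences. The ETS core CCGGAA, searched on both strands, was found in 6 of the 36 member promoters (PRAME, DDX53, CT83, SAGE1, MAGEA3 and MAGEA6), where 14.8% of all promoters hold it. A second string, CGGATGT, was picked after these sequences were seen. It was found on either strand in 11 of the 36 and in 1.24% of all promoters. The 11 were MAGEB2, SSX2, MAGEC1, MAGEC2, MAGEA11, MAGEA9, MAGEA8, MAGEA4, CSAG1, MAGEA12 and MAGEA2. Because the string was picked from these sequences, the comparison with all promoters cannot show enrichment. Most of the 11 are also paralogues, and the windows of CSAG1 and MAGEA12 overlap and share a match. Genes with that string went different ways, since MAGEB2, MAGEA4 and MAGEA11 fell and CSAG1 rose slightly. The CSAG1 difference (0.18) kept its direction but did not pass the test under several alternatives. MAGEA8, MAGEA9, MAGEC1 and MAGEC2 did not pass the test. SSX2, MAGEA2 and MAGEA12 had only probe sets shared with other genes, which fell. No match says only that these letters are not in this window.

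GAGE genes encode small acidic antigens from a tandem array of copies on the X chromosome, and they gave the highest rise among the members. The probe set that lists GAGE10, GAGE2A, GAGE13 and several GAGE12 copies (8167560) read 10.85, 10.84 and 10.86 in colonies, against 6.32, 6.61 and 6.73 in parent cells. Colony arrays were close together and far above the parent arrays, which lay just above the array median. The log2 difference was 4.30 ± 0.10 (SE), or 19.6-fold higher, with adjusted p = 3.3e-06 by limma. Only 1 other probe set with a gene symbol had a larger rise. The second GAGE probe set (8167573), which also lists GAGE1, GAGE4 and GAGE12B, read 11.19, 11.32 and 11.36 in colonies, against 7.99, 8.45 and 8.36 in parent cells. Again the groups did not overlap, at 3.02 ± 0.13 or 8.13-fold higher (limma adjusted p = 2.1e-05). Both list largely the same copies, so the array does not tell which GAGE copy rose.

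The related XAGE and PAGE genes did not move with GAGE. None of their 6 distinct probe sets passed the test by limma, and none had an unadjusted p under 0.05, with differences from -0.06 to 0.05. PAGE1, which follows GAGE in the gene order of the X probe sets, was dim, at 4.50, 4.50 and 4.50 in colonies and 4.50, 4.61 and 4.52 in parent cells. PAGE5 was the only one not dim in both groups, at 6.14, 6.22 and 6.30 in colonies and 6.08, 6.36 and 6.39 in parent cells, with overlapping groups.

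The SSX genes, which encode nuclear repressor proteins known from the fusion gene of synovial sarcoma, went the other way. SSX1 read 5.45, 5.74 and 5.47 in colonies, against 8.64, 8.48 and 8.23 in parent cells. Every colony array lay below the array median and every parent array well above it, a log2 difference of -2.90 ± 0.13, or 7.45-fold lower on the deposited values (limma adjusted p = 2.5e-05). SSX5 and SSX3, its neighbours on either side in the gene order, were dim in both groups and did not pass the test (-0.01 and -0.04). The 4 probe sets that list about all SSX copies, SSX1 included, were also dim in both groups and fell by 0.37 to 0.48 on the log2 scale. GAGE and SSX1 lie on the same chromosome arm, and within the arrays the log2 value of GAGE (8167573) minus that of SSX1 was higher in colonies by 5.92 ± 0.25 (exact permutation test, 2-sided, p = 0.1, the smallest that 3 against 3 allows, and 0.1 adjusted over 6 pairs chosen after their values were seen). Both had non-overlapping groups in opposite directions, so p could not have been larger.

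SAGE1, a sarcoma-derived antigen gene, had the deepest fall among the members. It read 4.35, 3.94 and 4.02 in colonies, against 7.33, 7.24 and 7.24 in parent cells. The groups lay on opposite sides of the array median, with a difference of -3.17 ± 0.11, or 9.00-fold lower (limma adjusted p = 1.1e-05). Beside it in the gene order lie the CT45A genes, a further cancer-testis family outside the member list, and their 6 probe sets fell by still more, from -5.02 ± 0.10 to -4.43 ± 0.08 (limma adjusted p = 2.8e-06 and 2.1e-06). The CT45A probe set with the deepest fall (8175353) read 4.93, 4.69 and 4.58 in colonies, against 9.81, 9.68 and 9.77 in parent cells. The genes that flank SAGE1 and CT45A in that order, INTS6L (0.37) and MMGT1 (-0.48), differed far less.

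The NY-ESO-1 genes CTAG1A, CTAG1B and CTAG2, whose products are targets of T cell therapies, did not pass the test although not dim. The joint probe set read 7.06 on all 3 colony arrays, against 7.03, 7.16 and 7.14 in parent cells. The CTAG2 probe set read 8.13, 8.07 and 8.06 in colonies and 7.92, 8.03 and 8.07 in parent cells. The groups overlapped in both, with differences of -0.05 ± 0.05 and 0.08 ± 0.06.

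**Figure D3:**
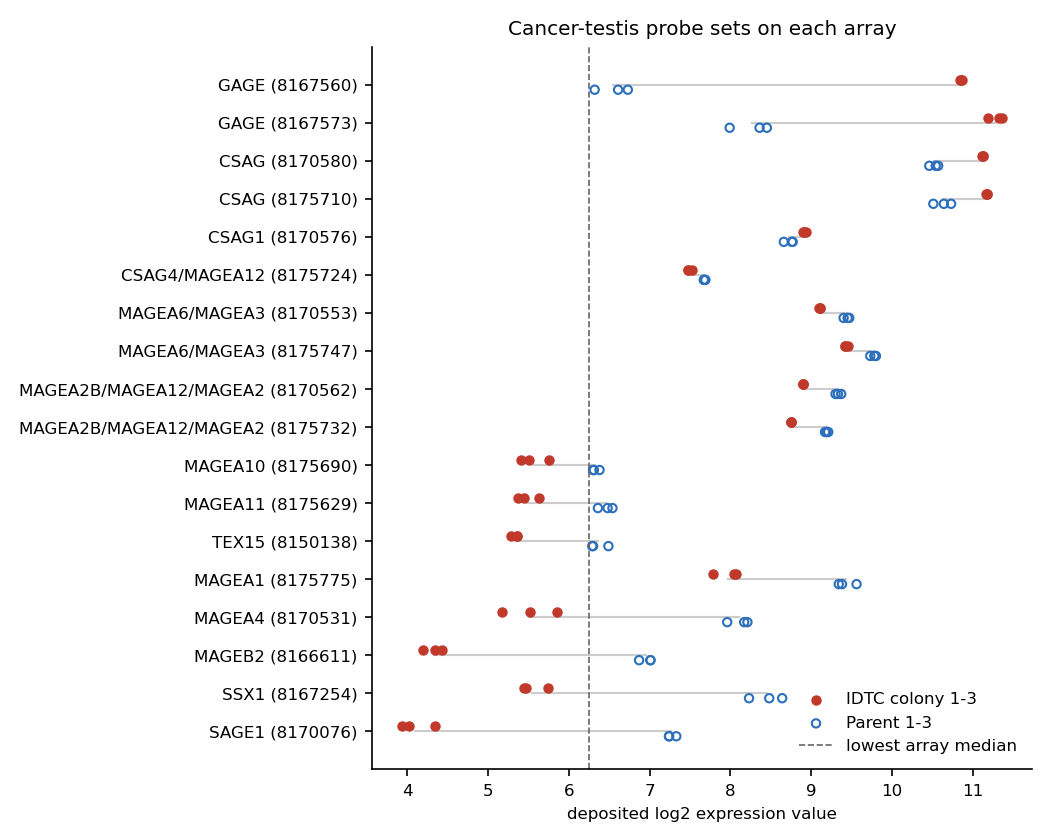
Deposited log2 value on every array of the 18 cancer-testis probe sets that differed by at least 2-fold or passed the test without being dim in both groups, IDTC colony 1-3 filled and above, Parent 1-3 open and below, ordered by difference. In none of the 18 do colony and parent arrays overlap, which their choice by test or fold favours. The colony values of SAGE1, SSX1, MAGEB2, MAGEA4, TEX15, MAGEA11 and MAGEA10 lie left of the dashed line of the lowest array median (6.25).

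MAGE-A genes encode proteins that bind RING-type ubiquitin ligases and alter what these mark. Of their 11 distinct probe sets none was dim in both groups, 9 fell, none rose by limma and 2 did not pass the test, with differences from -2.60 to 0.07. That is 81.8% called, against 56.2% of all probe sets with a gene symbol and not dim in both groups. These paralogues share probes, so the 11 are not independent. MAGEA4 fell most, at 5.85, 5.17 and 5.52 in colonies, against 8.21, 7.96 and 8.17 in parent cells. The colonies spread more among themselves (SD 0.34) than at any other member, yet all lay below the array median and below every parent array (-2.60 ± 0.17, 6.06-fold lower, limma adjusted p = 1.1e-04). MAGEA1, the founding member of the family, read 7.79, 8.05 and 8.07 in colonies, against 9.56, 9.34 and 9.38 in parent cells. It stayed above the array median on every array while falling 2.75-fold (-1.46 ± 0.10, limma adjusted p = 1.2e-04).

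MAGEA11, a coregulator of the androgen receptor, read 5.45, 5.37 and 5.63 in colonies, against 6.48, 6.54 and 6.36 in parent cells (-0.98 ± 0.08, limma adjusted p = 2.9e-04). MAGEA10 read 5.76, 5.51 and 5.41 in colonies, against 6.31, 6.38 and 6.30 in parent cells (-0.77 ± 0.09, limma adjusted p = 0.00129). For both, the parent arrays lay only just above the lowest array median (6.25) and the colony arrays below it, so the folds rest on dim values.

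The MAGEA3 and MAGEA6 genes, whose proteins bind the ligase TRIM28, shared 2 probe sets and changed little. The first (8170553) read 9.09, 9.11 and 9.11 in colonies and 9.40, 9.45 and 9.47 in parent cells. The second (8175747) read 9.42, 9.42 and 9.45 in colonies and 9.73, 9.78 and 9.80 in parent cells. They fell by 0.33 and 0.34 on the log2 scale, or 1.26-fold and 1.27-fold, with no overlap between groups (limma adjusted p = 0.00158 and 0.00141).

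The probe sets that list MAGEA2, MAGEA2B and MAGEA12 fell by a little more. The first (8170562) read 8.90 on all 3 colony arrays, against 9.30, 9.33 and 9.37 in parent cells, and the second (8175732) 8.75 on all 3 colony arrays, against 9.17, 9.19 and 9.21 in parent cells. Their differences were -0.43 ± 0.04 and -0.44 ± 0.04 (limma adjusted p = 4.7e-04 and 3.8e-04). A probe set shared by CSAG4 and MAGEA12 read 7.48, 7.53 and 7.48 in colonies and 7.69, 7.68 and 7.67 in parent cells (-0.19 ± 0.04, limma adjusted p = 0.0166), and it did not pass without IDTC colony replicate 1 (-0.18, adjusted p = 0.0592).

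MAGEA8 and MAGEA9 did not pass the test. MAGEA8 read 7.83, 7.72 and 7.79 in colonies and 7.56, 7.79 and 7.79 in parent cells, and the probe set of MAGEA9 and MAGEA9B read 6.61, 6.42 and 6.61 in colonies and 6.75, 6.78 and 6.61 in parent cells. Both had overlapping groups. Within the arrays, MAGEA4 minus MAGEA8 was lower in colonies by a difference of -2.67 ± 0.22, MAGEA4 minus MAGEA3 and MAGEA6 (8170553) by -2.26 ± 0.22, and MAGEA1 minus the same probe set by -1.13 ± 0.12 (exact permutation test, 2-sided, p = 0.1 for each, the smallest the design allows, and 0.1 adjusted over the 6 pairs).

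CSAG genes are interleaved with these MAGE-A copies, and most of their probe sets rose where the MAGE-A copies fell. The exception was the probe set shared by CSAG4 and MAGEA12, which fell (-0.19). The probe set listing CSAG1, CSAG2 and CSAG3 (8170580) read 11.12, 11.11 and 11.12 in colonies, against 10.57, 10.46 and 10.54 in parent cells (0.60 ± 0.05, 1.51-fold higher, limma adjusted p = 2.0e-04). The one that adds CSAG4 (8175710) read 11.17, 11.18 and 11.16 in colonies, against 10.73, 10.51 and 10.64 in parent cells (0.54 ± 0.06, limma adjusted p = 0.00101). In both, all colony arrays lay above all parent arrays. The probe set of CSAG1 alone (8170576) read 8.90, 8.93 and 8.91 in colonies and 8.77, 8.76 and 8.66 in parent cells (0.18 ± 0.05, limma adjusted p = 0.029). That call was lost with arrays shifted to a common median (0.16, adjusted p = 0.105) and without any 1 array except Parent replicate 1, with adjusted p from 0.0527 to 0.0929.

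The starts of CSAG and MAGE-A genes in this cluster lie back to back. In RefSeq (GRCh38.p14), 35 bases lie between the first listed starts of CSAG1 and MAGEA12, which run on opposite strands (chrX:152733722-152733756), and 36 between those of CSAG3 and MAGEA2 (chrX:152753885-152753920). Both stretches are shown because a CSAG gene starts at one end and a MAGE-A gene at the other. They are written along the MAGE-A gene, on the plus strand for MAGEA12 and the minus strand for MAGEA2, with CG in capitals.
MAGEA12-CSAG1: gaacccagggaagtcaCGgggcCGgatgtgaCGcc
MAGEA2-CSAG3: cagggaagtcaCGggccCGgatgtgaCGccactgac
The stretches match at 29 of 30 aligned positions, and each holds 3 CG dinucleotides. Within the arrays, the CSAG value (8170580) minus the MAGEA2, MAGEA2B and MAGEA12 value (8175732) was higher in colonies by 1.03 ± 0.04, and CSAG1 alone minus the shared CSAG4 and MAGEA12 probe set by 0.37 ± 0.03 (exact permutation test, 2-sided, p = 0.1 for each, the smallest the design allows, and 0.1 adjusted over the 6 pairs). The pairs were chosen after their values were seen. Each joins probe sets with non-overlapping groups and opposite directions, so p could not have been larger.

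Among MAGE-B genes, MAGEB2 read 4.43, 4.20 and 4.35 in colonies, against 7.01, 6.87 and 7.01 in parent cells. The groups lay on opposite sides of the array median, with a difference of -2.64 ± 0.08, or 6.21-fold lower (limma adjusted p = 5.6e-06). The probe set of MAGEB4 and MAGEB1 was dim, at 4.88, 4.82 and 4.80 in colonies and 4.83, 4.89 and 4.98 in parent cells. The 3 MAGE-C genes, MAGEC1, MAGEC2 and MAGEC3, were dim in both groups and none passed the test by limma, with none at an unadjusted p under 0.05 (-0.13 to -0.01).

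PRAME, an antigen of melanoma and other tumours that represses retinoic acid receptor signalling, was bright and nearly equal in the groups. It read 10.57, 10.53 and 10.52 in colonies and 10.47, 10.47 and 10.52 in parent cells. The groups overlapped, at a difference of 0.05 ± 0.04 (limma adjusted p = 0.445). PRAME lies on chromosome 22, outside the X-linked families.

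Other members were mostly dim. TEX15, which acts in meiotic recombination and in silencing of transposons in germ cells, read 5.29, 5.36 and 5.36 in colonies, against 6.49, 6.29 and 6.30 in parent cells. Its parent arrays lay just above the lowest array median (6.25) and its colony arrays below it, and it fell 2.03-fold (-1.02 ± 0.07, limma adjusted p = 1.1e-04). TEX14, needed for the bridges between germ cells, rose while dim, at 4.79, 4.91 and 4.79 in colonies, against 4.42, 4.36 and 4.37 in parent cells (0.45 ± 0.05, limma adjusted p = 0.00107). PASD1 fell while dim, at 4.79, 4.53 and 4.67 in colonies, against 5.00, 5.02 and 5.12 in parent cells (-0.38 ± 0.08, limma adjusted p = 0.0113). The synaptonemal complex genes SYCP1 (0.05) and SYCP3 (0.04), the helicase genes DDX43 (-0.06) and DDX53 (-0.04), SPANXB1 (0.10) and CT83 (0.02) were dim in both groups and did not pass the test.

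Neighbouring genes outside the cancer-testis lists mostly moved less than the members with the largest changes. The 20 nearest X-linked genes above the median level, 10 on each side of a locus, had a median log2 difference of 0.00 at GAGE, -0.16 at SSX1, 0.07 at SAGE1, 0.00 at MAGEB2 and -0.12 at MAGEA4. For scale, 56.2% of all probe sets with a gene symbol and not dim in both groups were called. At GAGE 2 of the 20 were higher and 5 lower in colonies, with values from -0.92 to 0.69. At SSX1 2 were higher and 9 lower, none under -0.78, and values ran at SAGE1 from -0.84 to 1.43 and at MAGEB2 from -1.12 to 1.89, the last for its neighbour TAB3. Near MAGEA4 and MAGEA1 the 20 genes included PNMA5, a gene outside the family that lies between CETN2 and MAGEA1, at -4.45. At MAGEA11 the neighbours had a median of 0.03 and ran from -1.46 to 0.93, past its own -0.98. From MAGEA3 to MAGEA6 they ran from -4.45 to 0.93 with a median of -0.12. The MAGE-A and CSAG probe sets of that stretch ran only from -0.44 to 0.60. Of the 785 X-linked probe sets that were not members, 106 were higher and 143 lower, with a median of -0.02. That is 31.7% called, against 38.8% of all probe sets with a gene symbol. Of the 785, 368 were dim in both groups, against 7715 of the 21214 with a gene symbol.

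**Figure D4:**
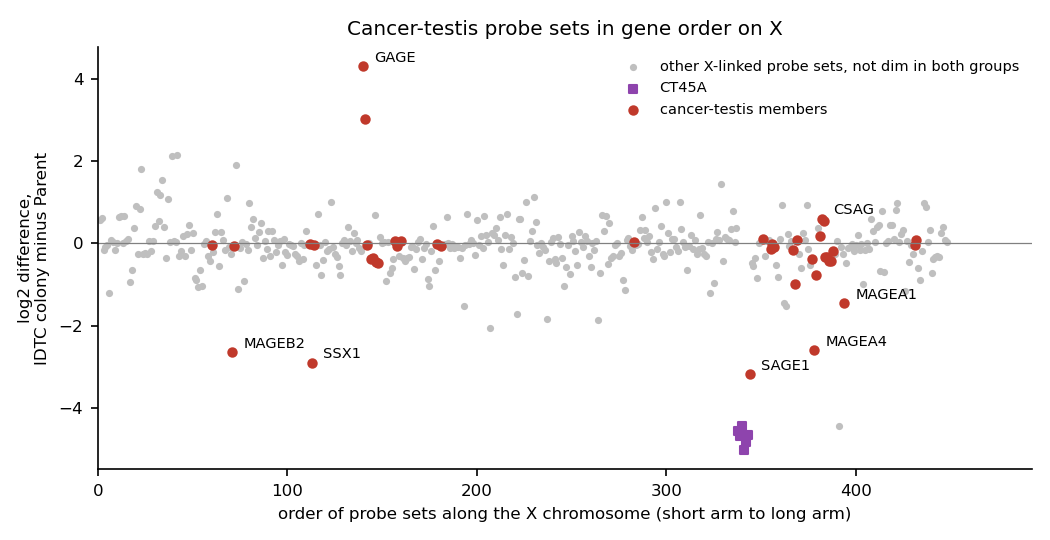
Log2 difference, IDTC colony minus parent, of 448 X-linked probe sets in gene order from the short arm to the long arm, at the mean position of the genes each lists (red, cancer-testis members; purple squares, CT45A; grey, others not dim in both groups). GAGE at 4.30 and 3.02 stands on the short arm near SSX1 at -2.90, and SAGE1 at -3.17 stands next to the CT45A probe sets at -5.02 to -4.43.

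Further cancer-testis genes were counted in the same fit, in which 38.8% of all probe sets with a gene symbol were called. That share was 8.43% among those dim in both groups and 56.2% among the others. Of 42 distinct probe sets for 34 further X-linked genes, 9 fell and none rose by limma (21.4% called), with 10 at an unadjusted p under 0.05. Of these 42, 35 were dim in both groups, with 3 called. Of the other 7, 6 fell, all of CT45A. Besides CT45A those that fell were IL13RA2, a decoy receptor for interleukin 13 (-1.58 ± 0.16), and CT55 in 2 probe sets (-0.68 and -0.46), all dim in both groups. Of 59 probe sets for 55 autosomal cancer-testis and germline genes, 10 rose and 2 fell, or 20.3% called. Of these 59, 44 were dim in both groups, with 4 called, and of the other 15 there were 6 higher and 2 lower. TSGA10, a sperm tail gene, rose by 1.31 ± 0.10 and SPA17, a sperm surface antigen gene, by 0.80 ± 0.09, both dim in both groups. The 6 rises not dim in both groups were NUF2 (0.75), SPAG9 (0.63), CEP55 (0.62), TPX2 (0.60) and 2 probe sets of ROPN1 and ROPN1B (0.39 and 0.32). IGF2BP3, an RNA-binding protein gene, fell by 0.47 on the log2 scale, and a probe set shared by CTCFL, SP100 and HMGB1 by 0.25. The probe sets of CTCFL alone did not pass the test (-0.20, and -0.05 while dim in both groups), so that fall is not shown for CTCFL. Among the ubiquitous MAGE genes 1 of 11 probe sets rose and 4 fell (45.5% called), with TRO at 0.41 ± 0.05, NDN at -0.83 ± 0.08 (dim in both groups) and MAGED1 at -0.60 ± 0.05.

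Genes for partners of MAGE proteins and for DNA methylation and silencing changed in both directions. Among ligase partners of MAGE proteins 3 of 15 probe sets rose and 5 fell, or 53.3% called. All 8 called were among the 11 that were not dim in both groups. For scale, 56.2% of all probe sets with a gene symbol and not dim in both groups were called. The falls included ELOC in 2 probe sets at -0.79 and -0.71, RBX1 at -0.66 ± 0.04 and TRIM27 at -0.32 ± 0.05. NSMCE1 (0.30) and TRIM8 (0.27) had the largest rises there, and only 1 of the 15 was higher with arrays shifted to a common median. TRIM28 itself did not pass the test (-0.20 ± 0.09). In the DNA methylation machinery 4 of 19 probe sets rose and 9 fell (68.4% called), with a median of -0.18. UHRF1, which brings the maintenance methyltransferase to newly copied DNA, read 8.48 ± 0.05 in colonies and 9.56 ± 0.06 in parent cells (SD, n = 3 each), a difference of -1.08 ± 0.05, while its second probe set was dim and did not pass (-0.03). DNMT1, that methyltransferase, fell by 0.44 on the log2 scale and TDG, a base excision glycosylase gene, by 0.71. TET1, which oxidises methylated cytosine, rose by 0.78 ± 0.10, DNMT3A by 0.46 ± 0.05 and DNMT3B by 0.41 ± 0.05. Of 23 probe sets for silencers of germline genes 11 rose and 9 fell (87% called, none dim in both groups), SETDB1 (0.70 ± 0.05) and CBX1 (0.46 ± 0.05) with the largest rises and EZH2 (-0.84 ± 0.04) and HDAC2 (-0.56 ± 0.07) with the deepest falls. With arrays shifted to a common median 6 of those 23 were higher. The part of these shifts in the changes of the members was not tested.

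**Figure D5:**
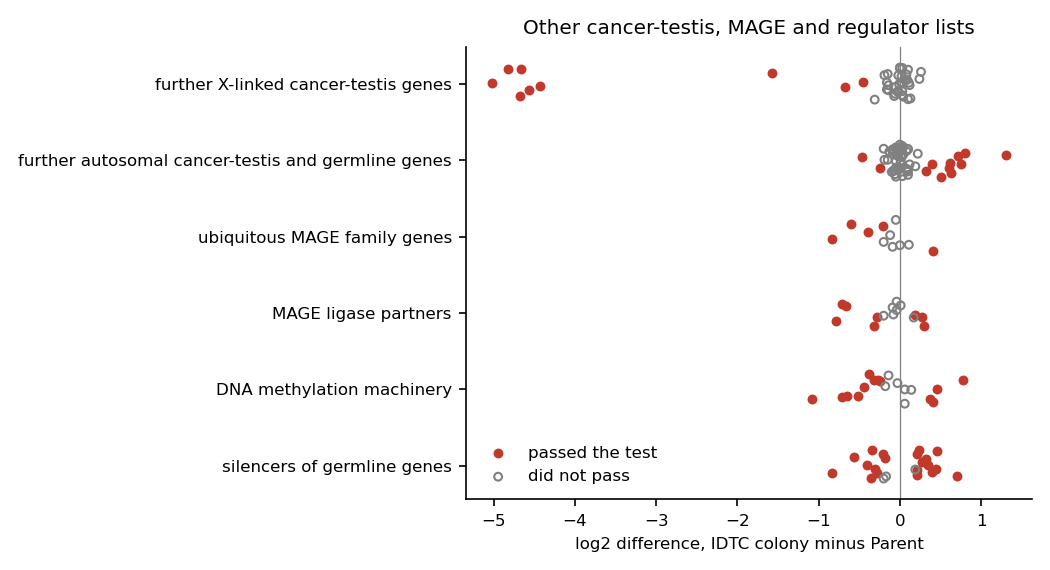
Log2 difference, IDTC colony minus parent, of every probe set in 6 further gene lists (vertical scatter only separates points), filled where limma's adjusted p was under 0.05. The CT45A points between -5.02 and -4.43 stand apart in the first list, while the ligase partners, methylation genes and silencers lie between -1.08 and 0.78.

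Markers of other cell types were read beside these results. In the testis list of Sertoli, Leydig and late germ cell genes, 14 of 17 probe sets were dim in both groups, 1 rose (HSD17B3, 0.24, dim in both groups), and the summed linear level was 855 to 869 in colonies and 769 to 879 in parent cells. Summed levels overlapped for keratinocyte (481 to 485 in colonies and 478 to 533 in parent cells), fibroblast (903 to 931 in colonies and 908 to 919 in parent cells) and endothelial markers (519 to 538 in colonies and 507 to 555 in parent cells). Of 12 fibroblast probe sets 1 rose and 2 fell, namely FBLN1 (1.06 ± 0.13), PDGFRA (-0.57) and LUM (-0.34). None of 9 keratinocyte and 12 endothelial probe sets passed by limma, with 1 in each list at an unadjusted p under 0.05. The leukocyte sum was lower in colonies, at 1474 to 1506 against 2971 to 3025 in parent cells. Only 3 of the 11 leukocyte probe sets fell by limma, namely LYZ (-2.35), FCER1G (-1.44) and CD68 (-1.27). CD68 was the brightest of the 11, at 9.78 in colonies and 11.05 in parent cells, so it weighed most in the linear sum. The other 8 were not called and differed by only -0.05 to 0.08. Among these 8, the defining leukocyte gene PTPRC was dim in both groups (3.71 in colonies and 3.67 in parent cells). The part of these marker changes in the results was not tested.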

How the data were processed

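RNA of 3 IDTC colony and 3 parent samples was hybridised to Affymetrix whole-transcript arrays, and groups were taken from the sample titles. The deposited values are log2 expression values per probe set, as their range shows, and per the submitters' processing notes they come from Affymetrix Expression Console. The version, background correction and normalization are not stated there. RNA was isolated separately from triplicates, but nothing says that these were separate cultures. The p-values therefore reflect the spread among these 6 samples alone, and that spread may be technical. The labels give no batch.

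Of 33297 probe sets, the platform annotation gave 19460 a single symbol, 1754 several and 12083 none. All were tested with limma 3.58.1 in R 4.3.3 (lmFit and eBayes, group as the only term, 2-sided), and p-values were adjusted by Benjamini-Hochberg over all of them at a threshold of 0.05. The procedure was tested on simulated data. SE is that of the moderated fit, except for differences between probe sets within arrays, where it comes from the 3 and 3 arrays. Probe sets with identical values were counted once, which was chosen after seeing the data. Titles number replicates 1 to 3 in each group, but same-numbered arrays deviated from their group means with correlations of only -0.0574 to 0.0556, so the number was not used to pair them.

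Members, gene lists and tests were chosen with earlier results of these data known. Values on all arrays were given for every member probe set past the test and not dim in both groups or different by at least 2-fold, and for others as examples. For each list other than those of other cell types, the 2 largest changes past the test in each direction were named. Lists of other cell types were given by counts and summed levels, and any gene named from them, or beyond the 2, was chosen after its values were seen. Members were matched by symbol to RefSeq promoters (GRCh38.p14), which 36 members had. Gene order came from the same assembly. Alternatives changed the normalization, the filter, the probe sets tested or the variance model, added the replicate number as a block, or left out each array. Figures were drawn with matplotlib 3.10.9 in Python 3.11.15.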

Additional observations from a re-analysis of the deposited data

How the results depend on the processing

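Of 18 member probe sets compared under up to 13 alternatives each, 211 values kept their direction and their side of the threshold and 9 kept only their direction, all of these for CSAG1 and the probe set of CSAG4 and MAGEA12. The higher and lower member probe sets, 6 and 18 of 55, ranged from 5 to 6 and stayed at 18 in number when each array was left out, although without IDTC colony replicate 1 the probe set of CSAG4 and MAGEA12 no longer passed. With the replicate number as a block they were 5 and 17, and over all probe sets 4332 and 4526, against 4805 and 5095 without the block, which ended the calls of CSAG1 (adjusted p = 0.0824) and of CSAG4 and MAGEA12 (adjusted p = 0.0694). With 1 probe set per gene, which keeps 30 members and none that lists several paralogues, 2 were higher and 9 lower, and with only probe sets above the median, which keeps 20, 8 were lower. Counts of identical probe sets taken once, an alternative chosen after seeing the data, were also 6 and 18. With a brighter threshold of 6.96 for dim, the median of probe sets with a gene symbol, 35 of 55 member probe sets were dim in both groups, against 29.

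Among the gene lists, 275 counts stayed within 1.5 times and 37 did not. With 1 probe set per gene, further X-linked cancer-testis genes had 3 lower in place of 9, since CT45A probe sets list several genes, and autosomal ones 1 lower in place of 2, also 1 without IDTC colony replicate 1 or 2. With only probe sets above the median, 6 autosomal ones were higher in place of 10. Higher silencers of germline genes numbered 7 with the replicate block and 5 or 6 without IDTC colony replicate 1 or 2 or Parent replicate 2 or 3, in place of 11, and higher ligase partners 1 in place of 3 with the block and without IDTC colony replicate 2 or 3 or Parent replicate 2 or 3. The other such counts were those of keratinocyte, fibroblast, endothelial and testis markers, each between 0 and 2. With 6 arrays and no detection calls, dim values limit every fold whose lower group lies under 6.25.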
